A study of Mus musculus with 8 samples.

Results

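The respiratory chain genes described here are the nuclear genes whose names on the array follow the naming of subunits of complexes I to IV and of ATP synthase (Nduf, Sdh, Uqcr, Cox4 to Cox8 and Atp5). The rule uses names alone and no measured value, and the genes number 90 of the 36406 gene or transcript names on the array, each read by the brightest of its probes (126 probes in all). Of these, 40 belong to complex I (4 of them assembly factors that are not part of the finished enzyme), 4 to complex II, 8 to complex III, 20 to complex IV and 15 to ATP synthase. The other 3 match the naming rule but are not counted with any complex. *Cox4nb*, which RefSeq now calls *Emc8*, encodes a subunit of a membrane protein insertion complex of the endoplasmic reticulum. The others are *Atp5sl* and *Atp5s*, now *Dmac2* and *Dmac2l*. RNA was measured on single-colour arrays in E14Tg2A.4 mouse embryonic stem (ES) cells, a feeder-independent male line. The 4 untreated arrays hold self-renewing cells, and the 4 RA arrays hold cells kept for 3 days in 1 µM all-trans retinoic acid (RA) in medium without leukemia inhibitory factor. RA and the loss of that factor therefore cannot be told apart, and all arrays come from 1 cell line of 1 genotype.

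The respiratory chain passes electrons from NADH and succinate to oxygen and pumps protons across the inner mitochondrial membrane, and ATP synthase lets the protons flow back to make ATP. Complex I oxidises NADH, complex II oxidises succinate as a step of the tricarboxylic acid cycle, complex III passes the electrons to cytochrome c, and complex IV reduces oxygen. Most subunits are encoded in the nucleus and imported, while the mitochondrial genome encodes a small set of core subunits, so the complexes need transcripts from both genomes, and some nuclear subunits exist as paralogs that are used in heart and skeletal muscle, testis or low oxygen. Pluripotent stem cells are known for glycolytic metabolism together with active mitochondria.

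The 4 arrays per condition passed 33629 to 37175 spots as well above background, and 89 of the 90 genes were well above background on all 8 arrays. The exception was *Cox8b*, which was so on no array. Levels are log2 intensities with the 75th percentile of each array set to 0. All 10 pluripotency markers were lower in the RA arrays, with a summed linear level (75th percentile = 1) of 488 to 682 in untreated and 56.0 to 130 in RA cells, and all 8 RA response genes were higher, at 6.31 to 11.5 against 107 to 193. All 8 primitive endoderm markers (9.18 to 24.5 against 72.4 to 92.8) and 6 of 10 striated and smooth muscle markers (6.31 to 8.96 against 264 to 500) were higher too. Of 7 neural markers 2 were higher and 1 was lower (6.66 to 10.9 against 13.8 to 15.1). The part of these cell types in the values below was not tested, and in RNA of whole cultures fewer cells of a type and less RNA per cell cannot be told apart.

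After RA the respiratory chain genes were mostly lower. At an adjusted p under 0.05 in limma, 51 of 90 fell and 1 rose, and with a change of at least 1.5-fold 31 fell and 1 rose. With quantile normalization 14 fell by at least 1.5-fold, and with the authors' values 15, but the share of all probes was not counted for these. *Cox8b* is among those that fell, so 50 and 30 of the 89 measured genes fell (56.2% and 33.7%). Over all 55681 probes 23.9% fell and 13.8% rose, and 21.6% and 12.9% did so by at least 1.5-fold. Among the 27515 probes detected on every array, 31.9% fell and 19.6% rose, and 27.7% and 17.8% did so by at least 1.5-fold. The share of measured respiratory chain genes that fell by at least 1.5-fold was thus close to that of detected probes, the share that fell at any size was larger, and the genes that rose were fewer. These shares are descriptions, and the differences between them were not tested.

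The direction was seen on single arrays as well. Of the 89 measured genes, 58 had every RA array below every untreated array and 6 had every RA array above, while such separation was found for 23.8% and 13.9% of all probes and for 33.4% and 20.6% of the detected probes. Over the 90 genes, the median level was 5.58, 5.34, 5.14 and 5.38 on untreated arrays 1 to 4 and 4.94, 4.97, 4.94 and 4.96 on RA arrays 1 to 4. The untreated arrays were more spread than the RA arrays, but the groups did not overlap. The arrays lie on 2 slides with 2 of each condition on both, and 82 of the 90 genes changed in the same direction on both slides.

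The size of the fall depends on the scaling of the arrays. With the 75th percentile the median log2 change of the 90 genes was -0.49, but the median of all probes was itself -0.28, so that the difference between the medians was -0.21. With quantile normalization, which gives all arrays 1 distribution, the medians were -0.27 and -0.00, a difference of -0.27. Under that scaling 38 genes fell and 9 rose, against 18.4% and 16.6% of all probes, and 37 of the 38 were among the 51. Genes with a log2 change below that of the median probe numbered 65 with the first scaling and 67 with the second. The median of the 27515 probes detected on every array was -0.23 with the first scaling and -0.06 with the second. Against these probes the difference of the genes was smaller, not larger, with quantile normalization. With the replicate number as a block 32 genes fell and 1 rose, and without RA array 1 or RA array 3 the number that fell was 31 or 32. In all, 25 genes fell at an adjusted p under 0.05 in each of the 18 alternatives. Of these, 8 were of complex I, among them its 4 assembly factors, and 3 were of complex III. Another 8 were of complex IV, 4 of ATP synthase and 2 are not counted with any complex. The share of all probes was not counted for the replicate block, for single arrays left out or over all alternatives.

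**Figure D1:**
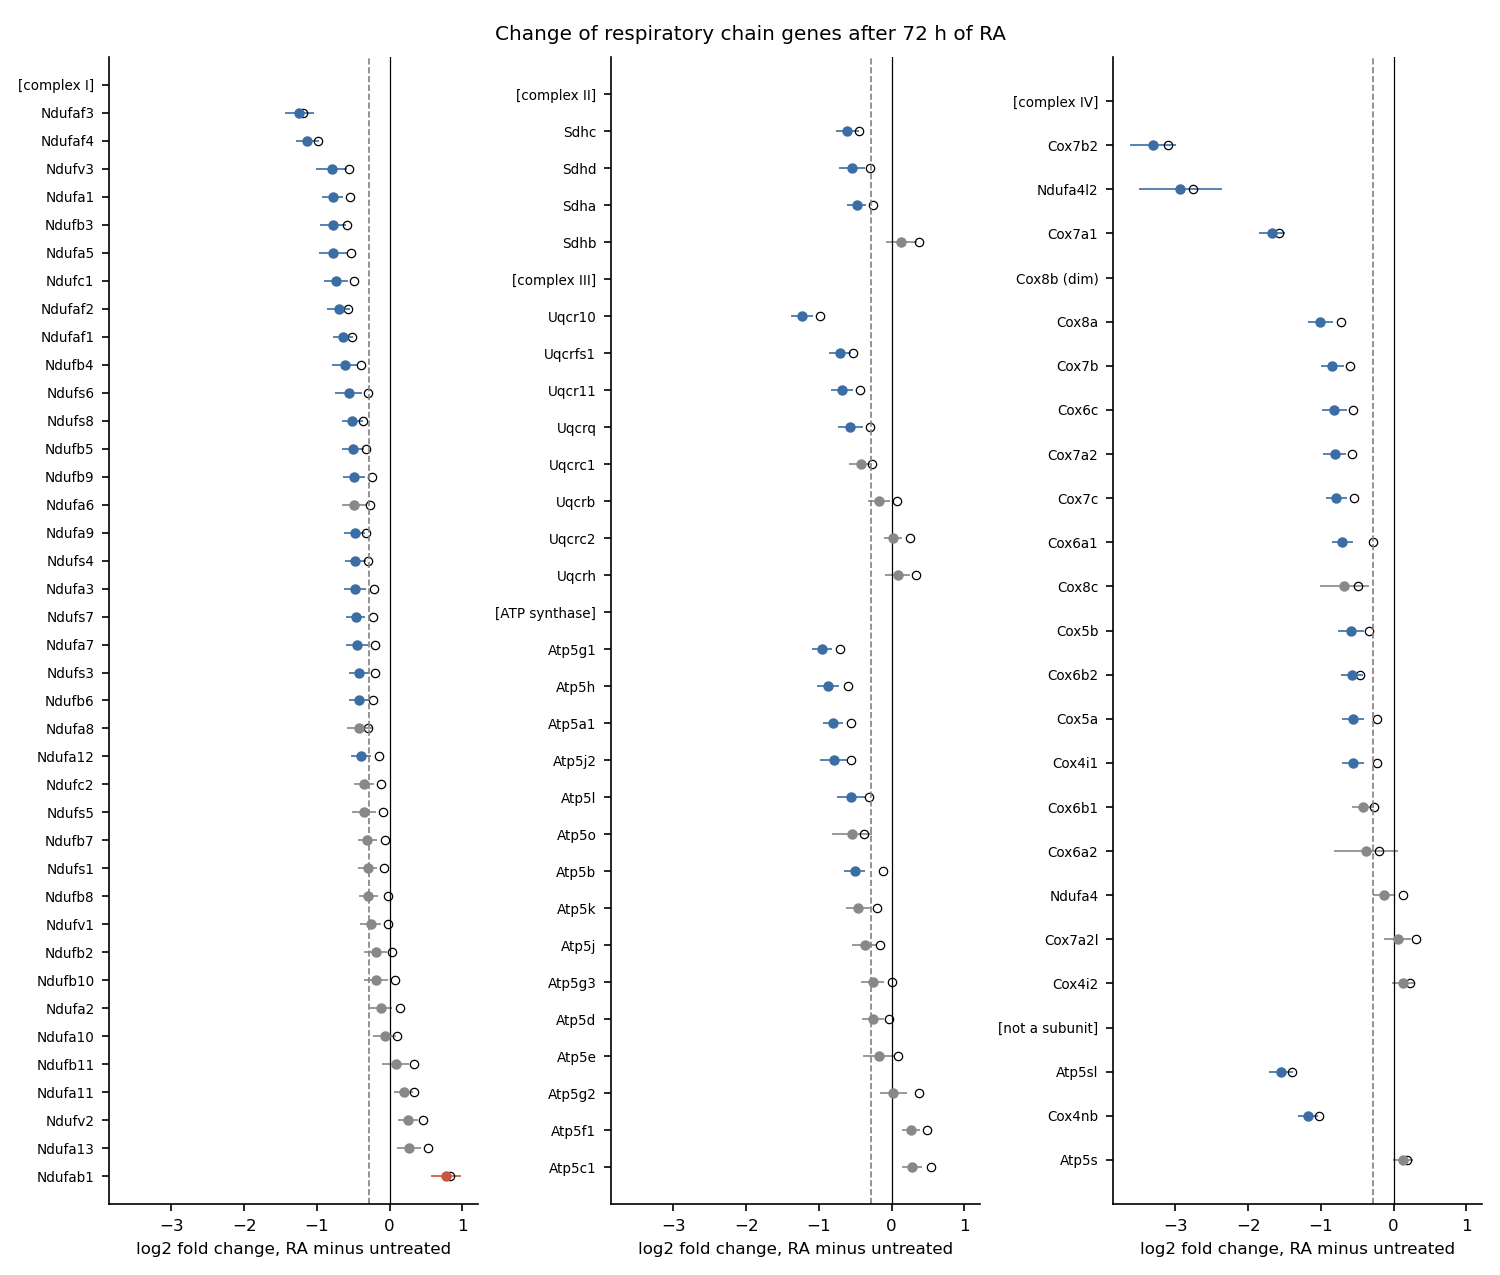
Log2 fold change (RA minus untreated, x axis) of the reported genes, listed by complex, with the 75th percentile scaling (filled points with standard error; blue, fell and red, rose at an adjusted p under 0.05 in limma; grey, did not pass) and with quantile normalization (open points). The dashed line marks the median of all probes at -0.28. Most filled points lie left of 0 and of the dashed line, Cox7b2, Ndufa4l2 and Cox7a1 lie farthest left, and Ndufab1 is the red point. Cox8b was not well above background and has no point.

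The sequences behind these readings are short. Each probe has 60 bases, and those for the ubiquitous *Cox4i1* and the muscle-type *Cox7a1* are shown because they stand for a gene that fell modestly and one that fell strongly. Positions are those of the scanner files (mm9), sequences run 5′ to 3′ as deposited, and the listed span is wider than the probe itself for *Cox7a1*.
Cox4i1, chr8:123197924-123197983: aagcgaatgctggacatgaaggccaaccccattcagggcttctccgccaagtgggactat
Cox7a1, chr7:30970337-30970948: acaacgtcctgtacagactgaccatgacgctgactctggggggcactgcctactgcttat

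Promoter windows of 300 bases (250 before to 50 after the start, RefSeq, GRCm38.p6) were found for 74 of the 90 genes. They were searched on both strands for 4 short motifs known from nuclear genes of mitochondria. The letters GCATGCGC, bound by nuclear respiratory factor 1, were in the window of 11 of the 74 genes (14.9%) and of 3.05% of all 27025 genes with a window. CCGGAAG, the core bound by ETS factors such as GABP, was in 17 (23.0%) against 9.93%, ATGGCGG, the YY1 letters, in 11 (14.9%) against 4.69%, and AAGGTCA, the element of estrogen-related receptors, in 8 (10.8%) against 5.38%. Among genes that fell, 4 of 43 held the NRF1 letters, 10 the ETS core, 10 the YY1 letters and 3 the ERR letters. Among genes that did not pass the test, the numbers were 7, 7, 1 and 5 of 30. A match is a description of letters and not a bound site.

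The 250 bases before the start are shown for 6 genes, because they cover large falls (*Cox7b2* and *Cox7a1*), 2 further falls with a motif, and 2 genes that did not pass the test. *Ndufa4l2* had no window. Capitals mark the motif letters on either strand.
Cox7b2, chr5:71548206-71548455, minus strand: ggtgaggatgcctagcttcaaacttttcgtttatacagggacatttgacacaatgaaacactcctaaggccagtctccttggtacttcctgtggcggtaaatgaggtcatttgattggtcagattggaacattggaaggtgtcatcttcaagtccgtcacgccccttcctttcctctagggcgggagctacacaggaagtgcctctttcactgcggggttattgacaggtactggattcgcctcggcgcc
Cox7a1, chr7:30183921-30184170, plus strand: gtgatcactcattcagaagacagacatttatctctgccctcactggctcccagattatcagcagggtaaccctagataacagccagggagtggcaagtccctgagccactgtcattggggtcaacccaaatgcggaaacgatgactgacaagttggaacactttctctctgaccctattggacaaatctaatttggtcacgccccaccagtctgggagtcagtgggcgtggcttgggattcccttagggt
Ndufaf4, chr4:24897833-24898082, plus strand: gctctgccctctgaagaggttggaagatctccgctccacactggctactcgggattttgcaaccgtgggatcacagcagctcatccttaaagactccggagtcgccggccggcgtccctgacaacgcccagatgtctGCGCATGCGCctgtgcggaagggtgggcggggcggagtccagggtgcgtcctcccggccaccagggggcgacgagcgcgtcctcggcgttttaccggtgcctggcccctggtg
Atp5h, chr11:115419920-115420169, minus strand: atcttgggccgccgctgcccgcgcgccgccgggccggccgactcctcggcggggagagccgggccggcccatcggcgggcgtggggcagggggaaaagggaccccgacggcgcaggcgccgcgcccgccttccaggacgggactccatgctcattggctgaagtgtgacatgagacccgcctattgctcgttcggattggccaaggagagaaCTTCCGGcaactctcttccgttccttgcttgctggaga
Atp5g2, chr15:102671048-102671297, minus strand: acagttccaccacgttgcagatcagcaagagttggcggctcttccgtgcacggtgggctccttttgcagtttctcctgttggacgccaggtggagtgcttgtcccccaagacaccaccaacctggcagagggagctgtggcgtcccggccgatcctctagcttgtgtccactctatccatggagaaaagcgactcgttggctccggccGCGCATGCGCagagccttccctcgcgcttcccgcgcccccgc
Sdhb, chr4:140961021-140961270, plus strand: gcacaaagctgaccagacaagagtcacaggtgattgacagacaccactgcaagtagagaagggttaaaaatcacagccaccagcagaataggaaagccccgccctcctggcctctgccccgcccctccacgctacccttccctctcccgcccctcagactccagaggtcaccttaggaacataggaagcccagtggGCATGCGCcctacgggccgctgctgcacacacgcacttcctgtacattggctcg
In *Ndufaf4* and *Atp5g2* the NRF1 letters are read on both strands of 1 stretch, where the 2 matches overlap, *Sdhb* holds them 1 time, and *Atp5h* holds the ETS core. *Cox7b2* and *Cox7a1* hold none of the 4 motifs in these bases. *Ndufaf4* fell and *Atp5g2* and *Sdhb* did not, so that the same letters stand before genes of either kind.

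In complex I, 22 of 40 genes fell and 1 rose, with a median log2 change of -0.44. With quantile normalization 15 fell and 4 rose, with a median of -0.22, and with the replicate block 10 fell and 1 rose. All 4 assembly factors fell by at least 1.5-fold, with a median of -0.92, and stayed at an adjusted p under 0.05 in all alternatives, though *Ndufaf1* and *Ndufaf2* fell by less than 1.5-fold with quantile normalization (-0.51 and -0.58). *Ndufaf3* and *Ndufaf4*, which act together early in assembly, changed most. *Ndufaf3* (NM_023247, chr9:108468692-108468899, mm9) read 2.05, 2.22, 1.92 and 2.29 on untreated arrays and 0.66, 0.57, 1.34 and 0.95 on RA arrays. Every RA array lay below every untreated array, and the log2 change was -1.24 (SE 0.20, adjusted p = 0.00114, limma). For *Ndufaf4* (NM_026742, chr4:24829194-24829253) the levels were 3.97, 3.54, 4.10 and 3.98 untreated and 2.72, 2.66, 2.90 and 2.77 after RA, a log2 change of -1.13 (SE 0.16, adjusted p = 0.000581, limma). A second detected probe of that gene fell more, by 1.67 on the log2 scale. The chaperone *Ndufaf2* fell by 0.70 and *Ndufaf1* by 0.64 on the log2 scale.

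The 7 core subunits of complex I, which carry the flavin, the iron-sulfur clusters and the ubiquinone site, had a median log2 change of -0.30, or -0.07 with quantile normalization, where 2 fell and 1 rose. *Ndufs8* fell by 0.51, *Ndufs7* by 0.47 and *Ndufs3* by 0.43 on the log2 scale (adjusted p = 0.0196, 0.0232 and 0.0374, limma), all 3 with no overlap of the conditions. With the replicate block their adjusted p was 0.0607, 0.0703 and 0.0977, and with the block and quantile normalization *Ndufs8* passed (adjusted p = 0.0388, limma). *Ndufs1*, the largest iron-sulfur subunit, and *Ndufv1*, which binds NADH, did not pass the test, at -0.30 and -0.26. *Ndufv2* read 4.70, 4.58, 4.31 and 4.59 untreated and 4.73, 4.81, 4.74 and 4.89 after RA. All RA arrays were slightly higher, but the log2 change of 0.25 did not pass with the 75th percentile (adjusted p = 0.188) and passed with quantile normalization at 0.46 (adjusted p = 0.00124, limma).

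Of the 29 accessory subunits of complex I, 15 fell, 1 rose and 13 did not pass the test, while with the replicate block 6 fell and 1 rose, and with quantile normalization 9 fell and 3 rose. The falls of at least 1.5-fold were those of *Ndufv3* (-0.80), *Ndufa1* (-0.78), *Ndufb3* (-0.78), *Ndufa5* (-0.77), *Ndufc1* (-0.73) and *Ndufb4* (-0.62), and the first 4 of these stayed at an adjusted p under 0.05 in all alternatives, with *Ndufv3*, *Ndufa1* and *Ndufa5* at -0.56, -0.55 and -0.54 under quantile normalization, less than 1.5-fold. *Ndufb4* did so in 10 of 18 alternatives and was at -0.39 with quantile normalization. *Ndufc1*, at -0.50 there, did so in all but the replicate block with quantile normalization (adjusted p = 0.054, limma). They were small subunits from different parts of the enzyme. At the other end, *Ndufab1* was the only gene of the 90 to rise with the 75th percentile. It encodes the mitochondrial acyl carrier protein, which also serves fatty acid and lipoic acid synthesis outside complex I. *Ndufab1* (NM_028177, chr7:129231667-129231726) read 1.04, 0.44, 1.36 and 1.09 untreated and 1.81, 1.57, 1.84 and 1.83 after RA. The conditions did not overlap, and the log2 change was 0.78 (SE 0.21, adjusted p = 0.0163, limma). It stayed on that side of the threshold in all 18 alternatives.

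**Figure D2:**
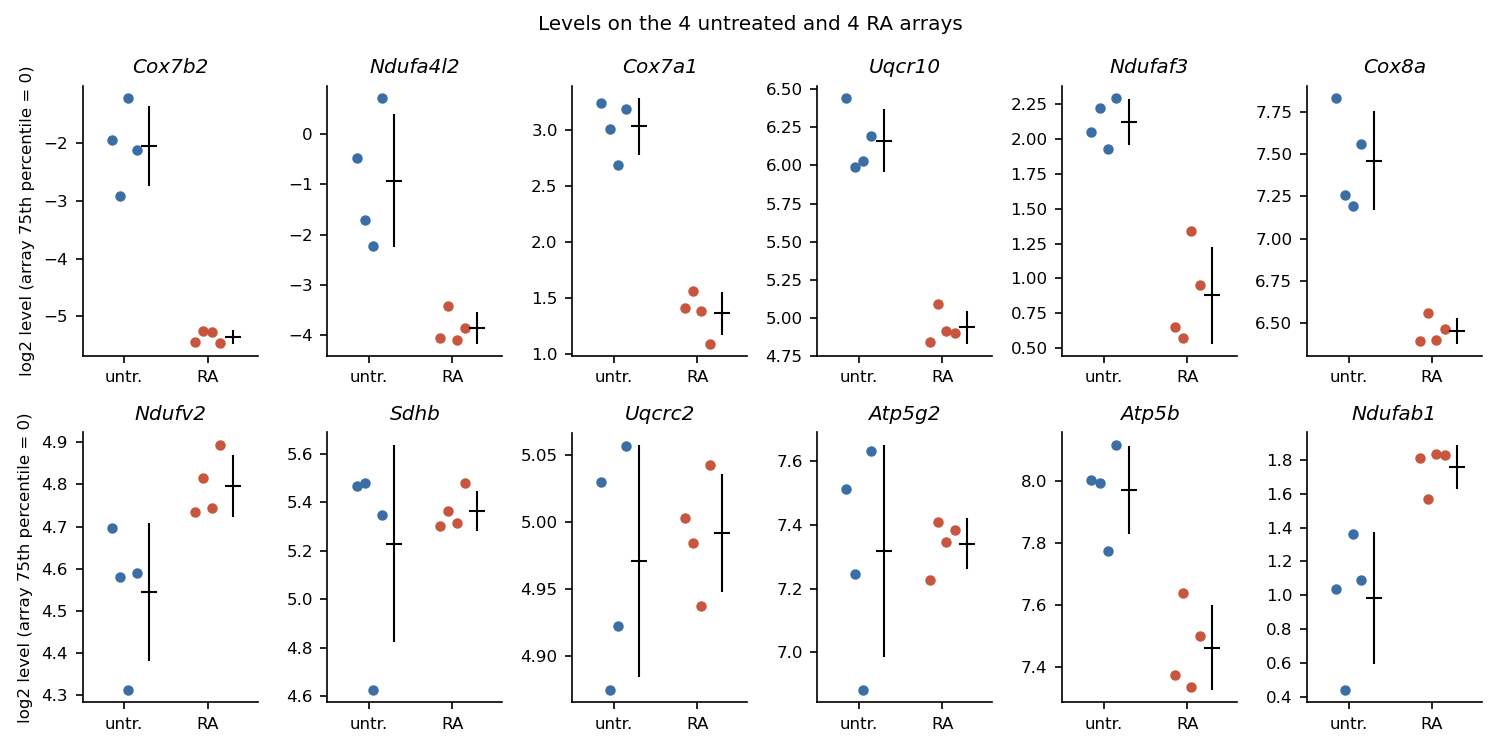
Log2 levels (array 75th percentile = 0) of 12 respiratory chain genes on the 4 untreated (blue) and 4 RA (red) arrays, with the mean and SD of each condition at the right of the points; each panel has its own axis. Cox7b2, Ndufa4l2, Cox7a1, Uqcr10, Ndufaf3, Cox8a and Atp5b lie lower on all RA arrays, Ndufab1 and Ndufv2 lie higher, and Sdhb, Uqcrc2 and Atp5g2 overlap.

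Complex II has 4 subunits, all nuclear, and 3 of them fell (1 with the replicate block). *Sdhc*, a membrane anchor, read 4.26, 4.15, 3.93 and 4.49 untreated and 3.65, 3.53, 3.70 and 3.52 after RA, and it fell by 0.61 on the log2 scale (adjusted p = 0.0138, and 0.0538 with quantile normalization and the replicate block, limma). The other anchor, *Sdhd*, fell by 0.54, and the flavoprotein *Sdha* fell by 0.48, but with the replicate block their adjusted p was 0.0623 and 0.0574. *Sdhb*, the iron-sulfur subunit, stood apart. Its untreated levels were 5.47, 5.48, 4.62 and 5.35 and its RA levels 5.30, 5.36, 5.31 and 5.48, with a log2 change of 0.13 (SE 0.21, adjusted p = 0.612, limma). The third untreated array was far below the other 3, and without it the change was -0.07, so that no change was detected with or without that array.

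In complex III, 4 of 8 genes fell and 4 did not pass the test, with a median log2 change of -0.50. With quantile normalization 3 fell and 2 rose, with a median of -0.29. The small subunit *Uqcr10* (NM_197979, chr11:4601979-4602038) read 6.44, 5.99, 6.03 and 6.19 untreated and 4.84, 5.09, 4.91 and 4.90 after RA. All RA arrays were about a log2 unit lower, a change of -1.23 (SE 0.15, adjusted p = 0.000274, limma). *Uqcrfs1*, the Rieske iron-sulfur protein, read 5.01, 4.48, 4.91 and 4.70 untreated and 3.98, 4.06, 4.10 and 4.12 after RA, a log2 change of -0.71 (SE 0.15, adjusted p = 0.00602, limma). *Uqcr11* fell by 0.68 and *Uqcrq* by 0.57 on the log2 scale, the latter not with the replicate block (adjusted p = 0.0848) or with quantile normalization (adjusted p = 0.0874). The core proteins of the matrix side gave unlike values. *Uqcrc1* had every RA array below every untreated array at -0.43 but did not pass (adjusted p = 0.0628), and *Uqcrc2* ranged from 4.87 to 5.06 on untreated arrays and lay within that range after RA, from 4.94 to 5.04, a change of 0.02. With quantile normalization *Uqcrc2*, at 0.25, and the hinge protein *Uqcrh*, at 0.34, were the genes that rose (adjusted p = 0.0123 and 0.0289, limma). Neither passed with quantile normalization and the replicate block (adjusted p = 0.0525 and 0.0555, limma).

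In complex IV 14 of 20 genes passed the test as lower, and of the 13 without the dim *Cox8b* 10 fell by at least 1.5-fold. Of the 20, 12 fell with quantile normalization, 12 with the replicate block and 9 with both. The median log2 change of the 20 was -0.69 (-0.48 with quantile normalization), and no gene rose under either scaling. Of the 11 subunits used in most tissues 9 fell, 7 of them by at least 1.5-fold. *Cox8a*, the ubiquitous form of subunit VIII, read 7.83, 7.26, 7.19 and 7.56 untreated and 6.39, 6.56, 6.40 and 6.46 after RA, a log2 change of -1.01 (SE 0.17, adjusted p = 0.00166, limma). The small subunits *Cox7b* (-0.84), *Cox6c* (-0.81), *Cox7a2* (-0.81), *Cox7c* (-0.79) and *Cox6a1* (-0.71) fell as well, and the first 4 stayed at an adjusted p under 0.05 in all alternatives, with *Cox6c*, *Cox7a2* and *Cox7c* at -0.56, -0.57 and -0.54 under quantile normalization, less than 1.5-fold. *Cox6a1*, at -0.29 there, did so in all but the replicate block with quantile normalization (adjusted p = 0.0524, limma). *Cox5b*, *Cox5a* and *Cox4i1*, which pack against the catalytic core, fell by 0.59, 0.56 and 0.56 on the log2 scale. These 3 did not pass with quantile normalization (adjusted p = 0.0733, 0.0569 and 0.196, limma), and *Cox5a* not with the replicate block (adjusted p = 0.0503). A second probe of *Cox5b* lies on another chromosome, which leaves the source of that signal uncertain. *Ndufa4*, named as a complex I subunit but known as a subunit of complex IV, did not pass at -0.13, nor did *Cox7a2l*, which joins complexes III and IV into supercomplexes, at 0.05.

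Of the 8 paralogs of restricted expression in complex IV, *Cox7b2*, *Ndufa4l2* and *Cox7a1* had the largest falls of the 90 genes with the 75th percentile, *Cox6b2* fell by less, 3 did not pass the test and *Cox8b* was not well above background. *Cox7b2* (NM_030052, chr5:71834459-71894699), the testis form of subunit VIIb, read -1.94, -2.91, -1.22 and -2.12 untreated and -5.45, -5.25, -5.27 and -5.47 after RA. With this scaling it had the largest change of the 90, lower by 3.31 on the log2 scale (SE 0.31, adjusted p = 6.46e-05, limma). With the background corrected by normexp, which compresses dim values, the change was -1.79, smaller than that of *Ndufa4l2*, as it also was with the authors' values (-1.61) and without untreated array 3 (-3.04). *Cox6b2* and *Cox8c* are further forms known from testis. *Cox6b2* fell by 0.57 (adjusted p = 0.0171, limma), not with the replicate block (adjusted p = 0.0551), and *Cox8c* did not pass at -0.68 with overlapping conditions. Of 7 male germ line markers 3 fell and 2 rose, with summed levels of 8.05 to 13.998 untreated and 9.03 to 12.2 after RA and *Acrv1* not above background on any array. *Tex101* changed by -3.56 and *Sycp3*, of the synaptonemal complex, by -2.77, *Prm1*, a sperm protamine, was at least 6.57-fold lower, and *Ddx4* rose by 1.82. The part of these genes in the change of *Cox7b2* was not tested.

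*Ndufa4l2* (NM_001098789, chr10:126954149-126954208), the paralog of *Ndufa4* that is known to be induced by low oxygen, read -0.47, -1.71, -2.23 and 0.71 untreated and -4.06, -3.41, -4.09 and -3.86 after RA. The untreated arrays differed by almost 3 log2 units but all lay above the RA arrays. The log2 change was -2.93 (SE 0.57, adjusted p = 0.00356, limma) and ranged from -2.39 to -3.37 when single arrays were left out. With normexp it was -2.09 and with the authors' values -1.94. Of 8 hypoxia response genes 3 fell and 2 rose, with summed levels of 45.0 to 70.1 untreated and 75.3 to 116 after RA. *Pdk1*, an inhibitory kinase of pyruvate dehydrogenase, changed by -2.25 and *Vegfa*, an angiogenic growth factor, by 2.00, and the part of these genes in the change of *Ndufa4l2* was not tested. *Cox4i2*, the lung form of subunit IV that is also linked to low oxygen, did not pass at 0.13.

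*Cox7a1* (NM_009944), the heart and skeletal muscle form of subunit VIIa, read 3.25, 3.01, 2.69 and 3.19 untreated and 1.41, 1.56, 1.38 and 1.09 after RA. The groups were well apart and the spread was small, with a log2 change of -1.68 (SE 0.18, adjusted p = 0.000114, limma). The other muscle forms were dim: *Cox6a2* read -3.09 to -2.10 in 3 untreated arrays and -3.41 in the other, overlapped with RA and did not pass at -0.38, and *Cox8b* was not well above background. Of 10 striated and smooth muscle markers on the same arrays none fell, 6 rose and 4 did not pass the test. Among those that rose were *Acta2*, smooth muscle actin, by 9.19 and *Tagln* by 6.87 on the log2 scale. Striated and smooth muscle markers were not counted apart, and the part of muscle cells in the level of *Cox7a1* was not tested.

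The difference between paralogs on the same array does not depend on the scaling factor of the array, and it was used to ask whether the pairs moved apart. Of 10 pairs 9 could be tested, by an exact two-sided permutation test over all splits of the arrays with 4 in each group. Its smallest possible p is 0.0286, and 6 pairs were at it. Because these 6 were tied, their p became 0.0429 after adjustment over the pairs. With fewer pairs tied none could pass, so the 6 calls stand or fall together, and those of *Atp5g2* and *Atp5g3* share *Atp5g1*. *Cox7b2* fell against *Cox7b* by 2.47, *Ndufa4l2* against *Ndufa4* by 2.80 and *Cox7a1* against *Cox7a2* by 0.86, all on the log2 scale. With the background corrected by normexp these changes were -0.95, -1.98 and -0.82, and with the authors' values -0.98, -2.05 and -0.96. In the other direction, *Cox4i2* rose against *Cox4i1* by 0.69, where *Cox4i1* fell and *Cox4i2* itself did not pass the test. With normexp this change was 0.63 and with the authors' values 0.43. The 3 genes for subunit c of ATP synthase, whose mature proteins are identical, also moved apart, with *Atp5g2* rising against *Atp5g1* by 0.98 and *Atp5g3* against *Atp5g1* by 0.69. All 6 had no overlap of the conditions. The difference changed by 0.33 for *Cox6a2* against *Cox6a1*, by -0.15 for *Cox6b2* against *Cox6b1* and by 0.33 for *Cox8c* against *Cox8a*, and these did not pass (adjusted p = 0.486, 0.482 and 0.482, exact permutation test). After adjustment 0 pairs passed with the authors' values or normexp with quantile normalization, where 5 pairs were still at the smallest p (adjusted p = 0.0514, exact permutation test) and that of *Cox4i2* was at 0.0857 (unadjusted). None passed either when any 1 array other than untreated 1 or 3 was left out. There the unadjusted exact p was 0.0571 for the pair of *Ndufa4l2* without any 1 RA array, and for the pair of *Cox4i2* in each case but that without RA array 3. A test of the 4 same-numbered pairs cannot go below 0.125.

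**Figure D3:**
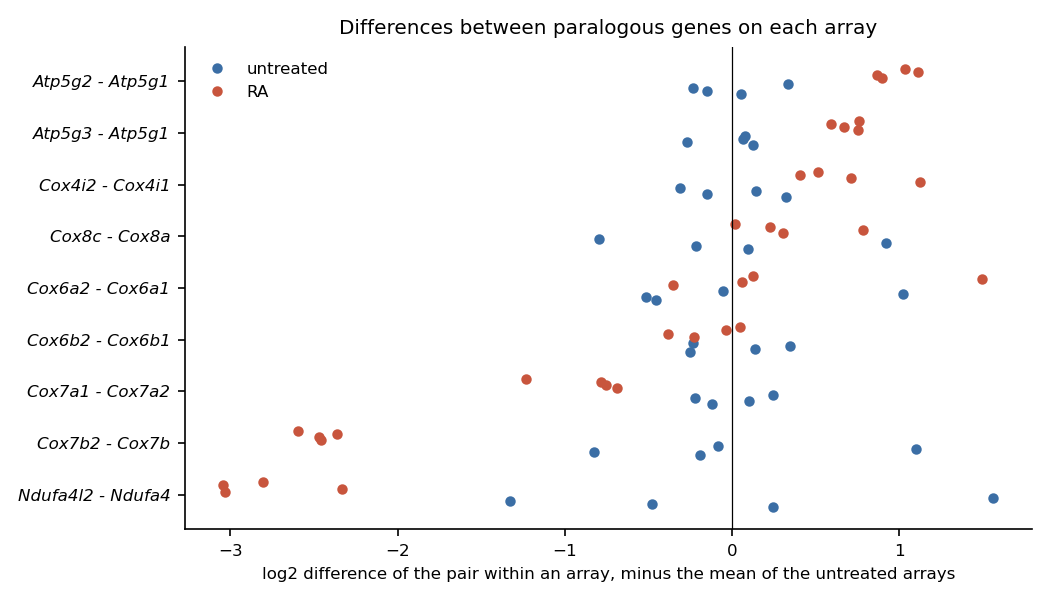
Log2 difference between the members of 9 paralog pairs on each array (x axis), with the mean of the untreated arrays set to 0 for each pair; blue, untreated and red, RA. The RA arrays lie apart from the untreated arrays for 6 pairs, to the left for the pairs of Ndufa4l2, Cox7b2 and Cox7a1 and to the right for those of Atp5g2, Atp5g3 and Cox4i2.

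In ATP synthase, 6 of 15 genes fell (4 with the replicate block) and 9 did not pass the test, with a median log2 change of -0.46. With quantile normalization 4 fell and 3 rose, with a median of -0.17. *Atp5g1* read 6.76, 6.69, 6.41 and 6.59 untreated and 5.62, 5.83, 5.53 and 5.64 after RA, a log2 change of -0.96 (SE 0.14, adjusted p = 0.000792, limma). *Atp5g2*, by contrast, read 7.51, 7.25, 6.88 and 7.63 against 7.23, 7.41, 7.35 and 7.38, where the RA arrays fell within the range of the untreated ones. In the catalytic head the subunits did not move as 1 group. *Atp5a1*, the alpha subunit, read 6.72, 6.49, 6.32 and 6.53 untreated and 5.601, 5.75, 5.70 and 5.80 after RA, a change of -0.80 (SE 0.14, adjusted p = 0.00186, limma). *Atp5b*, the catalytic beta subunit, fell by 0.51 (adjusted p = 0.0208, limma), but not with the replicate block (adjusted p = 0.0542) or with quantile normalization, where the change was -0.12. *Atp5c1*, the gamma subunit of the rotor, had all RA arrays above all untreated arrays at 0.28 without passing (adjusted p = 0.131), and *Atp5d* did not pass at -0.26. In the stalk and membrane part, *Atp5h* fell by 0.87 and *Atp5j2* by 0.80 on the log2 scale, both at an adjusted p under 0.05 in all alternatives, while *Atp5f1*, subunit b, was higher on all RA arrays at 0.27 without passing (adjusted p = 0.117). With quantile normalization *Atp5c1*, *Atp5f1* and *Atp5g2* were among the 9 genes that rose, at 0.55, 0.49 and 0.38. Other probes of *Atp5k* lie on chromosome Y, which leaves the source of its signal uncertain.

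Of the 3 genes that are not counted with any complex, 2 fell and 1 did not pass the test. *Atp5sl* (NM_025504, chr7:26410510-26410569), a gene known for a part in complex I assembly, read 4.30, 3.94, 4.37 and 4.12 untreated and 2.45, 2.48, 2.85 and 2.76 after RA, a log2 change of -1.55 (SE 0.16, adjusted p = 0.000115, limma). *Cox4nb* changed by -1.17, and *Atp5s* did not pass at 0.13. Across all 26 genes of the 90 with several detected probes, every probe of a gene gave the same direction, with a median spread of 0.06 log2 units. Some of these probes overlap in position, among them probes of *Uqcr11*, *Uqcrh* and *Atp5l*, so their agreement is not independent.

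Other genes of the pathway were read from lists by name. Of 24 assembly factors outside the naming rule 15 fell and 2 rose, with a median log2 change of -0.53 (14 and 3 with quantile normalization). *Tmem126b*, of the complex I assembly machinery, fell most at -1.37, and *Surf1*, a complex IV assembly factor, rose most at 0.82 (adjusted p = 0.000296 and 0.00441, limma). Of 11 mitochondrially encoded subunits on the array 8 fell and none rose (7 and none with quantile normalization), with a median of -0.63 (-0.37 with that scaling), from *ND3* at -1.61 to *ND2* at 0.07, while *COX1* and *COX2* did not pass at -0.39 and -0.44. The electron carrier cytochrome c (*Cycs*) and its partner *Cyc1* in complex III did not pass at -0.27 and -0.40, and *Cyct*, the testis form of cytochrome c, fell by 2.92.

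Of 76 genes for mitochondrial ribosomal proteins, which translate the mitochondrially encoded subunits, 52 fell and 1 rose (47 and 4 with quantile normalization), with a median log2 change of -0.66, a largest fall for *Mrps2* at -1.80 and the rise for *Mrpl41* at 0.62. The enzymes of the tricarboxylic acid cycle gave another picture, with 1 of 13 lower (*Ogdh*, the oxoglutarate dehydrogenase, at -0.96) and 2 higher (*Cs*, citrate synthase, at 0.65, and *Sucla2* at 0.44), or 1 and 4 with quantile normalization, and a median of 0.06 (0.22 with that scaling). Of 16 genes for mitochondrial transcription and biogenesis 7 fell and 2 rose under both scalings. The coactivator *Ppargc1b* was at least 3.50-fold lower after RA (adjusted p = 0.000696, limma), where it was not well above background, and *Ppargc1a* at least 4.85-fold higher (adjusted p = 3e-05, limma), with no untreated array well above background. *Gabpa* fell by 0.87 and *Nrf1* rose by 0.52 on the log2 scale. For comparison, 41 of 109 names of cytosolic ribosomal protein genes, which by the name pattern include pseudogenes and S6 kinases, fell and 2 rose, or 18 and 10 with quantile normalization (median -0.40, from *Rpl10l* at -3.73 to the kinase *Rps6ka3* at 2.06, and -0.02 with quantile normalization), and of 39 proteasome genes 9 fell and 8 rose, or 6 and 17 with quantile normalization (median -0.03, from *Psmb9* at -1.55 among those that fell to *Psmc1* at 0.69 among those that rose, and 0.22 with quantile normalization). The difference between any of these lists and the respiratory chain genes was not tested.

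**Figure D4:**
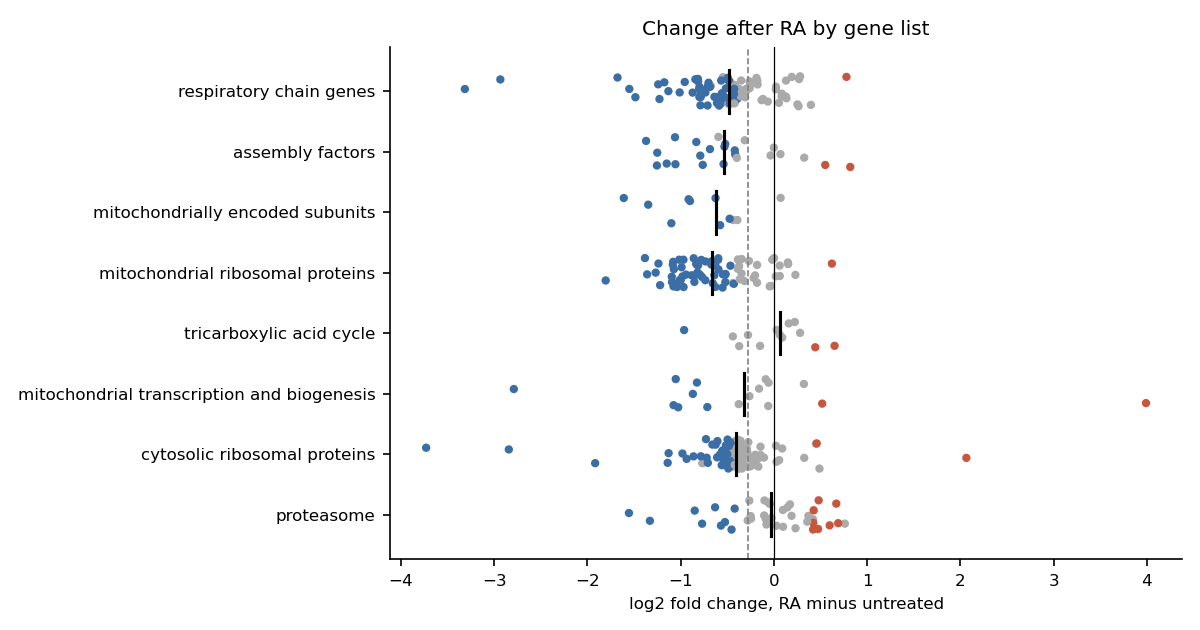
Log2 fold change (RA minus untreated, x axis, 75th percentile scaling) of each gene in the respiratory chain and in 7 other lists; blue, fell and red, rose at an adjusted p under 0.05 in limma; grey, did not pass; black bars, list medians; dashed line, median of all probes at -0.28. The respiratory chain, assembly factor, mitochondrially encoded and mitochondrial ribosomal lists have medians from -0.49 to -0.66, and the tricarboxylic acid cycle and proteasome lists lie near 0 with this scaling. Points of probes below background in a condition show the fitted value.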

How the data were processed

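RNA of 4 untreated and 4 RA-treated cultures of E14Tg2A.4 cells, labelled with Cy3 from an oligo-dT primer, was read on 1-colour Agilent arrays (62976 spots). The authors deposited the scanner output of Feature Extraction (version 10.7.3.1, per the file headers), of which the background-corrected, detrended intensity was used, and a table of log2 values, which follows normexp with quantile normalization (r above 0.999 on every array, median 6.89) and served as an alternative. In R (version 4.3.3), the log2 intensity minus the 75th percentile of each array over 59305 spots that are not controls was averaged per probe (55681 probes), leaving out spots marked as outliers. No spot was saturated, no filter on dim probes was applied, and no 2 arrays were identical. RA and untreated arrays entered 1 linear model per probe in limma (version 3.58.1; lmFit, eBayes), p-values were adjusted over every probe by the Benjamini-Hochberg method, and calls used the FDR of 0.05 of the study's methods, with counts also given at their fold of 1.5. Paralog pairs were compared with exact permutation tests. Promoters were read with Python (version 3.11.15), and all 90 gene names matched a RefSeq symbol or synonym.

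The naming rule, which itself uses no value, and the lists were chosen with earlier results of these data known. Named genes are the core subunits, the members of paralog pairs, the largest changes without overlap (up to 6 a direction), and from each list the largest rise and fall that passed. *Sycp3*, *Prm1*, *Acrv1*, *Tagln*, *COX1*, *COX2*, *ND2*, *Gabpa*, *Nrf1*, *Sucla2* and the other accessory subunits and assembly factors were named after their values had been seen. The labels give 4 biological replicates and number them 1 to 4 in both conditions. After subtracting each condition's mean, the untreated and the RA array of 1 number correlated over the 27515 detected probes (0.186, 0.189, 0.104 and 0.151 for numbers 1 to 4), while the highest value between different numbers was 0.142, above that of number 3. A pairing, which no label states, is thus only weakly seen, and a fit with the replicate number as a block was run beside the unpaired one. The procedure was tested on simulated data, where it recovered a minority of the changed probes and called few unchanged ones. The values of 1 core subunit gene of complex I are not reported here, though it is among the 90 genes counted. The number of arrays limits the precision. Alternatives were the scaling, the background correction, the authors' values, a filter on dim probes, slide and replicate blocks, the mean of a gene's probes, the reading of the naming rule and leaving out single arrays.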

Additional observations from a re-analysis of the deposited data

Results flagged for a closer look

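Of 82 groups of 4 arrays (41 named genes in 2 conditions), 6 held an array that lay far from the other 3 by Dixon's test, where chance gives about 1 in 20. Untreated array 1 read 6.01 for *Cox7a2* against 5.55 to 5.59 on the others. Untreated array 3 read 4.62 for *Sdhb* against 5.35 to 5.48. Among RA arrays, array 4 read 5.04 for *Ndufs3* (others 4.91 to 4.93), array 3 read 4.53 for *Sdha* (4.70 to 4.72), and array 2 read 1.57 for *Ndufab1* (1.81 to 1.84) and -7.66 for *Cox8b* (-7.98 to -7.92), which was below background throughout. These values came from untreated arrays 1 and 3 and RA arrays 2, 3 and 4.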

How the results depend on the processing

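The calls of a fall by 1.5-fold numbered 31 in the report, 14 with quantile normalization, with or without normexp and with the replicate block (added after seeing the data), and 15 with the authors' values. The 1 rise at an adjusted p under 0.05 became 9 with quantile normalization, normexp with quantile normalization or the authors' values, and 5 with quantile normalization and the replicate block, where 29 genes fell instead of 51. The replicate block alone left 32 falls, and single arrays left out gave 31 to 57, with 29 of the 51 genes called each time. The slide block (43 falls), the dim filter, the centring on detected probes (45), normexp with the 75th percentile (57), the mean of a gene's probes (52) and the wider reading of the rule stayed within 1.5 times. Of the 6 paralog pairs, 0 passed with normexp and quantile normalization and with the authors' values, and 0 to 6 without single arrays. The exact sign-flip test on replicate pairs could not pass, as its smallest p is 0.125.

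The direction of *Ndufa4* turned with quantile normalization (0.12, also with the replicate block), with normexp and quantile normalization (0.11) and with the authors' values (0.11), and that of *Atp5g3* with the last 2 (0.0148 and 0.0025). Without single arrays the change of *Uqcrc2* ranged from -0.0113 to 0.0494, that of *Atp5g2* from -0.12 to 0.13 (-0.00082 without untreated array 2) and that of *Sdhb* from -0.0670 to 0.219. None of these passed the test. Over the 41 named genes the other alternatives gave 632 values on the same side of the threshold, 70 that no longer passed and 25 that newly passed. The cause of these shifts was not tested. *Cox8b*, not well above background, gives no fold, and the number of arrays limits the precision.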
